A study of Mus musculus with 4 samples.

Results

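The NANOG peaks described here are those whose signal was lower in both libraries from auxin-treated mouse embryonic stem cells (ESCs) than in both libraries from uninduced cells. A peak was counted as bound when its deposited condition value reached 0.9 RPKM (reads per kilobase of window, scaled to library size) in uninduced or treated cells. A bound peak was taken when the larger of its 2 treated values lay below the smaller of its 2 uninduced values. Of 21066 windows in the data 16608 were bound, and 702 of these (4.23% of bound peaks) met the rule. In the opposite direction 10056 bound peaks (60.5%) had both treated values above both uninduced values, and in the remaining 5850 the conditions overlapped. The 702 lower peaks were chosen on the signal itself, so their fall after treatment is a description and was not tested. Of the 702, 84 lay below 0.9 RPKM in the IAA condition value. These counted as bound through their uninduced value alone.

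Chromatin immunoprecipitation followed by sequencing (ChIP-seq) with a NANOG antibody (Bethyl labs A300-397A) was done on the ZHBT-O4AID line, ESCs of the 129SV strain. The antibody list of the paper names a different NANOG product, a monoclonal rat antibody from eBioscience. Every library came from cells of 1 genotype, Oct4-/- with the transgenes TetOFF Oct4, CAG Oct4AID and CAG Tir1. Both conditions thus lacked the endogenous Oct4 gene, carried a wild-type Oct4 transgene that doxycycline (1 μg/ml) kept off, and expressed from the constitutive CAG promoter both OCT4 fused to an auxin-inducible degron and TIR1, the adaptor that directs the degron to the proteasome in the presence of auxin. Cells were cultured in N2B27 with PD03, Chiron and LIF. There were 2 uninduced libraries with no auxin (0 μM) and 2 libraries from cells given 500 μM indole-3-acetic acid (IAA), the natural auxin, for 1.5 h, each from an immunoprecipitation of its own. Whether these came from separate cultures is not given in the sources used here, so that the spread between libraries of a condition may be technical.

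NANOG is a homeodomain transcription factor of the naive pluripotency network and occupies many enhancers together with OCT4 and SOX2. OCT4, encoded by Pou5f1, is a POU-domain factor that reads an octamer sequence, alone or beside a SOX site as a composite element. Loss of OCT4 from ESCs is known to lead to exit from self-renewal, commonly toward a trophoblast-like fate.

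The sequences of 6 lower peaks are given first, because octamer letters were more common in the lower peaks than in other NANOG peaks. They are the 201 bases centred on the peak summit, on the plus strand of GRCm38, taken from the RefSeq genome sequence, and all but the enhancer window at Zic2 were chosen after their values were seen. In the windows of Lifr, Tet2, Jarid2 and Jazf1 and in the distal window at Zic2, capitals mark the octamer ATGCAAAT or a match with 1 letter changed, on either strand. In the enhancer window at Zic2 capitals mark the core of the OCT-SOX composite, TTGTNATGC. All 6 were picked among windows that hold such letters, so a match in each was fixed in advance. The lower windows near Klf5, Prdm14, Tead4 and Eomes held no octamer, no one-letter variant and no composite core.
Lifr intron, chr15:7115750-7115950: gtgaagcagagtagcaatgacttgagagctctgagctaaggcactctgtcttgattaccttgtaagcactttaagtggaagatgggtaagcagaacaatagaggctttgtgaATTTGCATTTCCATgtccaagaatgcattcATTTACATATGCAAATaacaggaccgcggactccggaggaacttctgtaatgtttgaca
Zic2 locus, distal window, chr14:122416398-122416598: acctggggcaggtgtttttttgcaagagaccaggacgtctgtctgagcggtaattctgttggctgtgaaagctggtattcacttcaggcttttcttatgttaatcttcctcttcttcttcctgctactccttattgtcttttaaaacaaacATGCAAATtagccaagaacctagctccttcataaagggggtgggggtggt
Zic2 locus, enhancer window, chr14:122434064-122434264: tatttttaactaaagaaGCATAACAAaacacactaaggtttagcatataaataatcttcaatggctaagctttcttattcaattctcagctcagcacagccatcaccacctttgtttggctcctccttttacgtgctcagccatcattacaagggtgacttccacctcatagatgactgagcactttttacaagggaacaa
Tet2 intron, chr3:133532633-133532833: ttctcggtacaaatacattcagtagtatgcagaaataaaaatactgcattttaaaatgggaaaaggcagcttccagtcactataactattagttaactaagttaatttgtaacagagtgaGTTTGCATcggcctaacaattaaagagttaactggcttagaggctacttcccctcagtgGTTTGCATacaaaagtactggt
Jarid2 intron, chr13:44751778-44751978: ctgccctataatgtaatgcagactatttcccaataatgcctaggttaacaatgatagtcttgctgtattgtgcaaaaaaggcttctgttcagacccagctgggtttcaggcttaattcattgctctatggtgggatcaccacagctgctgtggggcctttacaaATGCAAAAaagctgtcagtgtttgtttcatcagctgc
Jazf1 intron, chr6:52822776-52822976: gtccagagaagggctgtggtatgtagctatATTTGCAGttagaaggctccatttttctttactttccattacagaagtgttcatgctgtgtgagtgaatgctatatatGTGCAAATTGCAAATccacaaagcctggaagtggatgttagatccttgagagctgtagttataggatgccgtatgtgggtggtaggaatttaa
The Lifr sequence held 2 octamers and 2 one-letter variants, each octamer next to or overlapping a variant, while those of Tet2, Jarid2 and Jazf1 held no exact octamer but 2, 1 and 3 variants. The composite core occurred 1 time at the Zic2 enhancer window. Exact octamers also lay in peaks near these genes that were higher after IAA. An OCT4-flagged enhancer 23837 bp from Jarid2 went from 10.7 and 15.1 RPKM to 16.5 and 25.3 RPKM. A window 72492 bp from Zic2 went from 2.08 and 2.20 RPKM to 4.06 and 4.22 RPKM.

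The 4 libraries differed in depth and in general level. The recovered depth of uninduced replicates 1 and 2 was 8236968 and 11674801 reads, while IAA replicate 1 held 19634763 and IAA replicate 2, the shallowest, 5406307. A single read was accordingly worth 0.346, 0.244, 0.145 and 0.527 RPKM. No value in the files was 0, and a window with no read cannot be told from a window with 1 read. The median log2 ratio of IAA to uninduced over all bound peaks was 0.78, and the lower peaks went against this shift. They were not the only ones, since by condition values alone 2378 bound peaks (14.3%) were lower after IAA. With library medians set equal the shift was 0.06, and 3479 bound peaks (20.9%) were lower in both IAA libraries against 4241 (25.5%) that were higher. All 702 peaks were among the 3479, since dividing by the library medians moved the treated values down relative to the uninduced ones.

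In the uninduced libraries the lower peaks were stronger than the typical bound peak, and in the IAA libraries they were weaker. Their median signal was 3.80 and 4.64 RPKM in uninduced replicates 1 and 2, where the medians over all bound peaks were 2.08 and 2.93 RPKM. In IAA replicates 1 and 2 their median was 2.76 and 2.63 RPKM, against 3.92 and 4.22 RPKM over all bound peaks. The values of single peaks spread over a wide range in each library, from 0.692 to 24.2 RPKM in uninduced replicate 1 and from 0.527 to 15.3 RPKM in IAA replicate 2. Of the reads that fell in bound peaks, the lower peaks took 6.65% and 5.87% in the uninduced libraries but 2.43% and 2.11% in the IAA libraries.

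**Figure D1:**
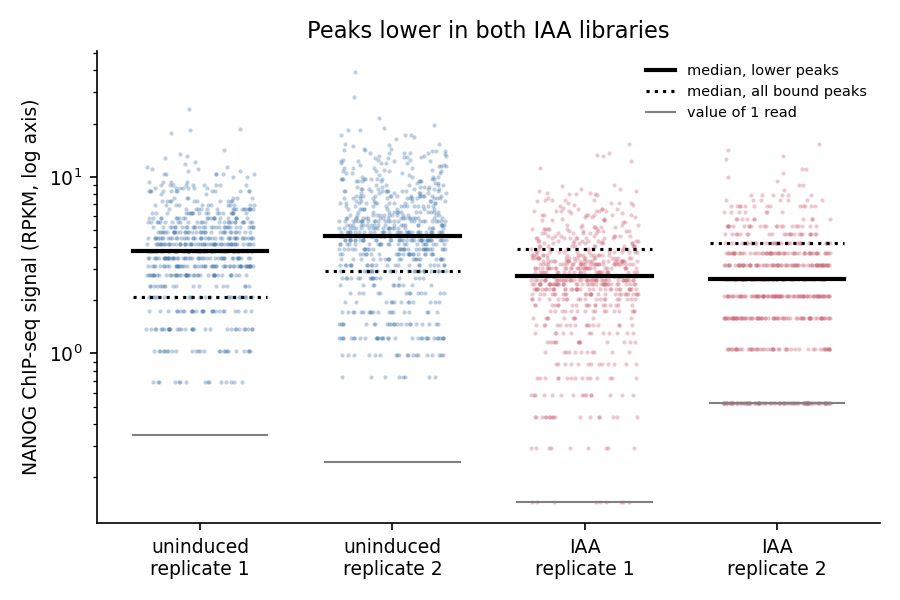
NANOG signal (RPKM, log axis) of the 702 peaks lower in both IAA libraries, 1 point per peak in each of the 4 libraries, with the median of these peaks (solid line, 3.80, 4.64, 2.76 and 2.63 RPKM), the median of all bound peaks (dotted line) and the value of 1 read (grey line). The solid line lies above the dotted line in both uninduced libraries and below it in both IAA libraries, as the choice of the peaks implies.

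Most falls were modest. The ratio of the mean uninduced to the mean IAA signal had a median of 1.67 and ran from 1.07 to 4.39. It reached 1.5 in 473 peaks, 2 in 180 and 3 in 25. In 192 of the 702 peaks the lowest uninduced value was at most 10% above the highest IAA value. Depth limited the comparison most in the shallowest library: the median lower peak was covered by 11 reads in uninduced replicate 1, by 19 in uninduced replicate 2 and by 19 in IAA replicate 1, but by only 5 in IAA replicate 2, where 237 peaks (33.8%) held at most 3 reads. At least 10 reads in both uninduced libraries were found in 461 of the 702 peaks.

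Near the boundary of the rule single reads decided the outcome. Just inside it, an intronic window of Trip11 (chr12:101862281-101862631) had 3.80 and 4.88 RPKM in uninduced replicates 1 and 2 and 3.77 and 3.69 RPKM in IAA replicates 1 and 2. Just outside it, a window 3527 bp from the start of Adam23 (chr1:63442189-63442539) had 4.50 and 8.30 RPKM in uninduced cells and 4.50 and 3.69 RPKM after IAA. The first window was counted and the second was not, although the second had the wider gap between its condition means.

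An OCT4 site within 1 kb was the most common flag of the lower peaks. The deposited flags mark OCT4 sites called from published ChIP-seq reads and chromatin classes taken from published peak sets, so they are independent of these 4 libraries. An OCT4 site was flagged at 421 of the 702 lower peaks (60.0%, 95% Wilson interval 56.3% to 63.5%), at 23.7% of all bound peaks and at 16.3% of the peaks that were higher in both IAA libraries. It was flagged at 31.9% of the peaks whose conditions overlapped. Seen from the other side, 10.7% of OCT4-flagged bound peaks and 2.22% of unflagged ones were lower. More OCT4-flagged peaks were higher than lower, with 41.8% higher, against 66.4% of unflagged ones. The median log2(RPKM + 0.1) change was 0.39 over all flagged bound peaks and 0.86 over unflagged ones. Intervals and floors cover counting error only, and peaks of the same libraries are not replicates of the treatment.

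Chromatin classes separated the peaks far less than OCT4 did. Active enhancers (near P300 and overlapping H3K27ac, the acetylation mark of active regulatory DNA) made up 97 of the lower peaks (13.8%) against 10.6% of bound peaks. Active promoters made up 17 (2.42%) against 2.87%. Repressed regions, which overlap H3K9me3 or H3K27me3, made up 60 (8.55%) against 5.58%. The share was close to the 7.97% of bound peaks whose conditions overlapped. A near-identical copy elsewhere in the genome was found for 29 of these 60 (48.3%) and for 43.5% of all bound peaks in the repressed class.

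Among OCT4-flagged peaks, those outside the enhancer class were lower more often than those inside it. Of 2893 bound peaks with an OCT4 site and no enhancer flag 339 were lower (11.7%), and of 1037 with both flags 82 were lower (7.91%). Enhancers with no OCT4 site were lower in 15 of 716 cases (2.09%), close to the 2.22% of peaks with neither flag. The largest combination was an OCT4 site with no chromatin class, 315 peaks or 44.9% of the lower peaks, followed by 228 peaks (32.5%) with none of the 4 flags and 71 that were OCT4-flagged enhancers only.

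**Figure D2:**
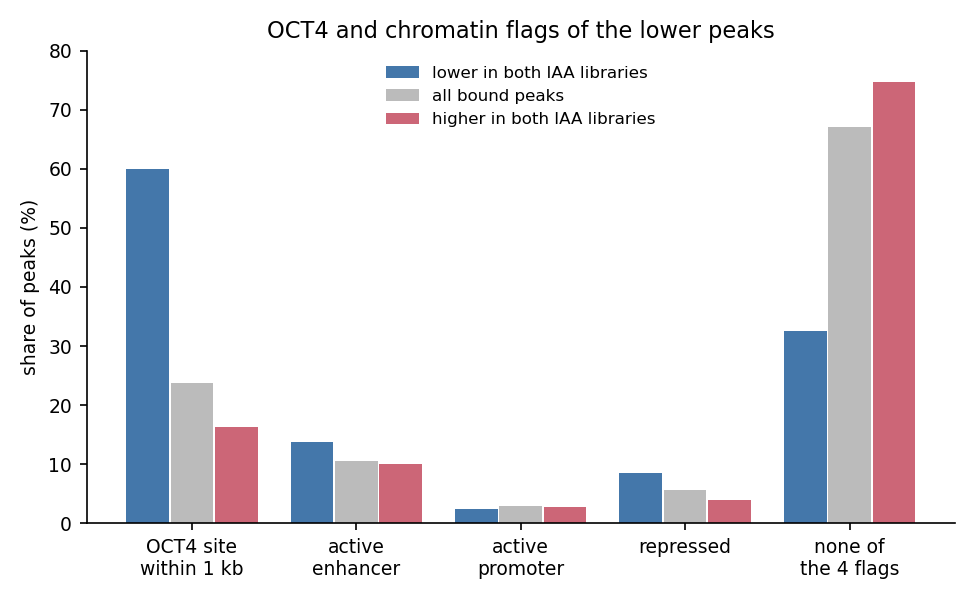
Share of peaks (%) that carry each flag, for the 702 peaks lower in both IAA libraries, all 16608 bound peaks and the 10056 peaks higher in both IAA libraries. The OCT4 bars stand at 60.0%, 23.7% and 16.3%, while the promoter bars are nearly level at 2.42%, 2.87% and 2.78%.

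The difference by OCT4 flag was present at each level of signal. When bound peaks were ranked by their mean RPKM over the 4 libraries and cut into 4 bins of 4152 peaks, the share that was lower was 3.85%, 3.42%, 5.85% and 3.78% from the weakest bin to the strongest. With an OCT4 site these shares were 7.76%, 9.06%, 16.2% and 8.65%, and without one they were 3.24%, 2.13%, 2.13% and 1.05%. The OCT4-flagged share of the lower peaks thus ran from 27.5% in the weakest bin through 49.3% and 73.3% to 82.2% in the strongest, beside 13.7%, 18.6%, 26.5% and 35.9% of all bound peaks in the same bins. OCT4-flagged and unflagged lower peaks had similar median changes, of -0.71 and -0.75 on the log2(RPKM + 0.1) scale. The flagged ones were stronger in uninduced cells, with a median of 4.95 against 3.34 RPKM. The same order held over all bound peaks, with 3.68 RPKM for flagged and 2.26 RPKM for unflagged ones.

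**Figure D3:**
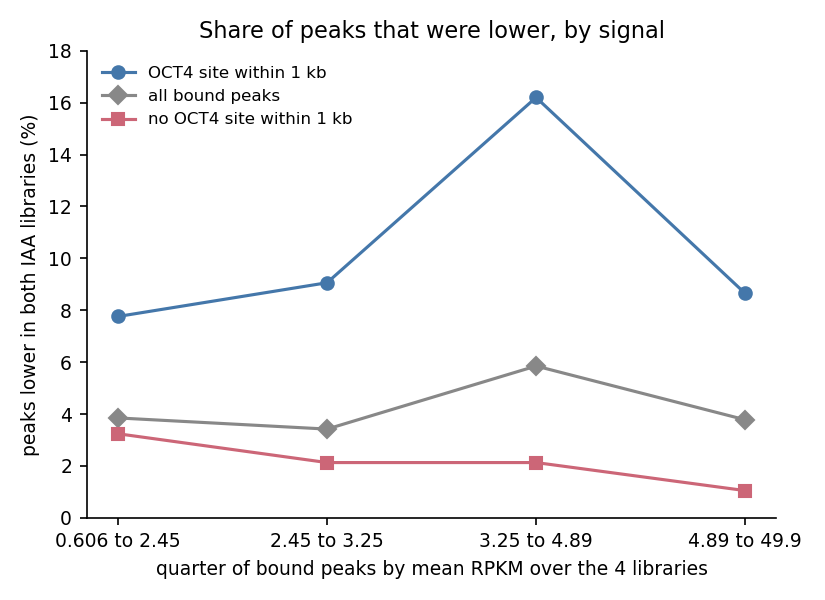
Share of bound peaks (%) that were lower in both IAA libraries, by bin of mean RPKM over the 4 libraries, for peaks with an OCT4 site within 1 kb, without one, and all bound peaks. The OCT4 line lies above the other lines in all 4 bins and is highest, at 16.2%, between 3.25 and 4.89 RPKM.

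The widest separations between conditions, among lower peaks with at least 10 reads in each uninduced library, were mostly at OCT4-flagged sites away from gene starts. An OCT4 site was flagged at 8 of the 10 widest. In the intron of Jazf1, a zinc-finger protein, the window chr6:52822701-52823051 (sequence above) had 5.88 and 7.81 RPKM in the uninduced libraries and 1.89 and 1.58 RPKM after IAA. In the intron of Cyp39a1, which encodes an oxysterol hydroxylase, the window chr17:43711957-43712307 had 10.7 and 14.4 RPKM in the uninduced libraries and 4.50 and 2.63 RPKM after IAA. In an intergenic window 8975 bp from the start of Prkcb, a protein kinase C gene (chr7:122279601-122279951), the values were 8.99 and 9.76 RPKM before and 3.77 and 3.16 RPKM after. At all 3 peaks both uninduced values were well above the highest IAA value, as the choice by the widest gap implies.

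The others of the 10 lay largely between genes. An intergenic window at chr16:9230061-9230411 had 8.30 and 8.54 RPKM in uninduced cells and 2.76 and 3.16 RPKM after IAA. The window chr11:33179871-33180221, 16840 bp from the start of Npm1 (nucleophosmin, a nucleolar protein), had 6.57 and 8.79 RPKM before and 2.76 and 2.63 RPKM after. The window chr13:46943273-46943623, 13581 bp from the start of the kinesin gene Kif13a, had 4.50 and 7.32 RPKM before and 1.60 and 1.58 RPKM after. Those at chr12:56284855-56285205 and in Atp5o and Itsn1 (chr16:91736472-91736822) were also OCT4-flagged, with 6.57 and 7.56 RPKM falling to 2.61 and 2.11, and 4.84 and 5.12 RPKM falling to 2.03 and 0.527. The pair without an OCT4 flag were an intron of Lrrc28 (chr7:67551774-67552124), with 4.50 and 4.88 RPKM before and 1.74 and 1.58 RPKM after, and an intergenic window on chromosome 18, with 5.19 and 5.12 RPKM before and 1.45 and 1.05 RPKM after. Octamer-like letters were found in 7 of these 10 windows.

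The lower peaks with the most signal in uninduced cells were led by enhancers. The strongest, an OCT4-flagged active enhancer 3812 bp from the start of Ssr2, a subunit of the translocon-associated protein complex (chr3:88571889-88572239), had 24.2 and 39.0 RPKM in uninduced replicates 1 and 2 and 13.1 and 13.2 RPKM in IAA replicates 1 and 2. The next, an OCT4-flagged enhancer 3257 bp from the start of Srgap3 (chr6:112950348-112950698), had 18.7 and 28.3 RPKM before and 12.3 and 15.3 RPKM after. The third was an intron of Rtf1, a component of the PAF1 transcription elongation complex (chr2:119730772-119731122), with no flag and with 18.3 and 21.5 RPKM before and 15.4 and 14.2 RPKM after. At the enhancers of Ssr2 and Srgap3 the uninduced libraries lay far apart, with replicate 2 the higher, while at Rtf1 all 4 values were closer together.

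Others of the 10 strongest were the Zic2 enhancer window described below and introns of Etl4, Nsf, Thap2 and Apool. The Etl4 enhancer (chr2:20655265-20655615) had 13.1 and 18.3 RPKM in uninduced cells and 6.09 and 7.38 RPKM after IAA. The Nsf window (chr11:103935677-103936027), in the gene of an ATPase of vesicle fusion, had 13.5 and 16.8 RPKM before and 11.2 and 11.1 RPKM after. The Pisd-ps1 window (chr11:3126956-3127306), an active promoter that has a near-identical copy in the genome, had 14.2 and 15.1 RPKM before and 13.3 and 11.1 RPKM after. An OCT4 site was flagged at 7 of these 10 peaks.

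Near genes of pluripotency and lineage the lower peaks were about as common as elsewhere. Of 76 listed genes 70 had a bound peak within 100 kb of the gene body, with 327 bound peaks in all, of which 13 were lower (3.98%, beside 4.23% of all bound peaks) and 212 were higher (64.8%, beside 60.5%). All 13 carried an OCT4 flag, and they made up 9.77% of the 133 OCT4-flagged peaks near these genes, beside 10.7% over all bound peaks. By list, 6 of 196 peaks were lower near naive pluripotency genes, 1 of 45 near genes of Nodal and other signalling, 2 of 31 near trophectoderm genes and 4 of 55 near primed and lineage regulators. These are too few to set the lists apart.

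In the naive list the lower peaks lay at Lifr, Tet2, Jarid2, Sall4, Klf5 and Prdm14. Lifr encodes the receptor subunit that binds LIF, the cytokine that supports ESC self-renewal. Its lower peak, an OCT4-flagged intronic enhancer (chr15:7115675-7116025, with the paired octamers shown above), had 12.1 and 13.7 RPKM in uninduced replicates 1 and 2 and 5.80 and 4.22 RPKM in IAA replicates 1 and 2 (mean 12.9 ± 1.10 against 5.01 ± 1.12 RPKM, SD, n = 2). Its neighbour 1024 bp away, also OCT4-flagged, had 4.50 and 9.76 RPKM before and 6.53 and 5.80 RPKM after and overlapped between conditions. The strongest peak of the locus, 8545 bp from the gene and without an OCT4 flag, went the other way, from 21.4 and 37.3 RPKM to 44.5 and 57.4 RPKM. A single gene thus had NANOG peaks that moved in both directions, as had each of the 11 listed genes with a lower peak.

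At Tet2, an enzyme that oxidises 5-methylcytosine, the pattern was similar. The lower intronic peak (chr3:133532558-133532908, no chromatin class) had 6.92 and 14.4 RPKM in the uninduced libraries and 3.63 and 5.80 RPKM after IAA (10.7 ± 5.29 against 4.71 ± 1.53 RPKM, SD, n = 2). An OCT4-flagged enhancer peak 978 bp away had 2.07 and 3.66 RPKM before and 4.64 and 4.22 RPKM after, and was higher. The strongest peak of the gene, an enhancer with an OCT4 site, had 33.9 and 45.6 RPKM before and 38.3 and 49.0 RPKM after, which overlap.

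Jarid2 encodes an accessory component of the Polycomb complex PRC2, and 12 of the 18 bound peaks near it were higher. Its lower peak, intronic and OCT4-flagged (chr13:44751703-44752053), had 5.19 and 10.005 RPKM in the uninduced libraries and 3.77 and 2.11 RPKM after IAA (7.60 ± 3.41 against 2.94 ± 1.18 RPKM, SD, n = 2). The nearest bound peak, 8786 bp upstream of it, rose from 3.11 and 5.12 RPKM to 7.11 and 10.01 RPKM.

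At Sall4, Klf5 and Prdm14 the lower peaks were far from the gene. Sall4 is a zinc-finger factor that acts with OCT4, and its lower peak, 71061 bp away (chr2:168838829-168839179), had 4.50 and 8.30 RPKM before and 2.76 and 1.58 RPKM after. Klf5 is a Krüppel-like factor, and its lower peak, 91786 bp away in an intron of Pibf1 (chr14:99206730-99207080), had 3.80 and 6.83 RPKM before and 3.77 and 1.05 RPKM after. Prdm14 encodes a repressor that protects naive identity, and its lower peak, 53273 bp away (chr1:13060009-13060359), had 4.15 and 5.61 RPKM before and 3.19 and 1.05 RPKM after. The Klf5 peak met the rule by less than the value of 1 read, and at all 3 the lowest value was in the shallowest library, where it stood for 3, 2 and 2 reads.

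Of the lineage regulators, Zic2, a zinc-finger factor of primed pluripotency and the neural lineage, had 3 lower peaks, more than any other listed gene. The strongest, an OCT4-flagged enhancer 41271 bp from the gene (chr14:122433989-122434339, with the composite core), had 12.8 and 19.5 RPKM in uninduced replicates 1 and 2 and 7.11 and 6.85 RPKM in IAA replicates 1 and 2 (16.2 ± 4.76 against 6.98 ± 0.183 RPKM, SD, n = 2). The window 58937 bp from the gene (chr14:122416323-122416673, with an octamer) had 3.80 and 5.61 RPKM before and 3.63 and 2.63 RPKM after. That at 7276 bp (chr14:122467984-122468334) had 4.84 and 8.05 RPKM before and 4.64 and 4.22 RPKM after. All 3 had an OCT4 site, while the 4 higher peaks of the locus had none. The peak nearest to the gene, 790 bp away in the repressed class, rose from 4.15 and 4.64 RPKM to 5.95 and 7.38 RPKM.

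The lower peak at Otx2, a homeobox factor of primed pluripotency, lay 2987 bp from the gene (chr14:48654515-48654865) and had 3.11 and 4.64 RPKM before and 2.76 and 1.58 RPKM after. Of trophectoderm regulators, Tead4 had an OCT4-flagged intronic enhancer (chr6:128261534-128261884) with 5.53 and 7.56 RPKM before and 2.03 and 2.63 RPKM after (6.55 ± 1.44 against 2.33 ± 0.427 RPKM, SD, n = 2). Eomes, a T-box factor, had a lower peak 51989 bp away in an intron of Golga4 (chr9:118537946-118538296), with 4.50 and 4.88 RPKM before and 2.32 and 3.69 RPKM after. The gap between conditions was wide at Tead4 and narrower at Eomes and Otx2. The 3 higher peaks of Tead4 had no OCT4 flag, and the strongest of them went from 5.53 and 4.15 RPKM to 8.56 and 12.6 RPKM. The lower peak at Dusp6, an ERK phosphatase, changed least, from 4.15 and 4.39 RPKM to 3.92 and 3.69 RPKM.

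**Figure D4:**
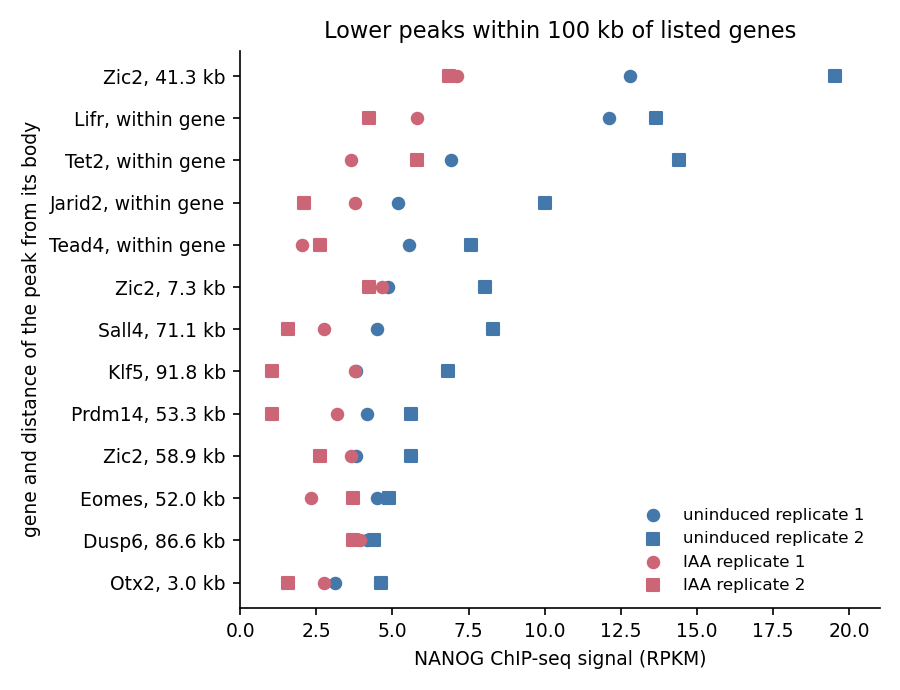
NANOG signal (RPKM) in each of the 4 libraries at the 13 lower peaks within 100 kb of a listed gene, ordered by mean uninduced signal, with circles for replicate 1 and squares for replicate 2. Blue uninduced symbols lie to the right of red IAA symbols by the rule, widely at Zic2 (41.3 kb) and Lifr and by least at Klf5, where 3.80 RPKM stood against 3.77 RPKM.

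Octamer letters were found in the lower peaks more often than in other bound peaks. Both strands of each 351-bp window were searched. The octamer ATGCAAAT was present in 69 of the 702 lower windows (9.83%), in 2.96% of bound windows and in 1.68% of the windows that were higher. The octamer or a version with 1 letter changed was present in 54.1% against 31.1%, its 6-letter core ATGCAA in 32.5% against 17.4%, and the composite core TTGTNATGC, which overlaps the octamer, in 8.55% against 3.38%. A match is a description of the letters and not a binding site.

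The difference was present on both sides of the OCT4 flag. Among OCT4-flagged peaks the octamer occurred in 13.3% of the lower windows and 7.18% of the others, and among unflagged peaks in 4.63% and 1.37%. The unflagged side rests on few windows, since 4.63% stands for 13 of 281, with 6 in the central part. The median distance of the octamer from the centre was 101.5 bp in these 13. It was 82 bp in other unflagged windows and 37 bp in flagged lower ones. With 1 letter free these became 66.7% against 47.1% with an OCT4 site and 35.2% against 25.3% without. Matches lay toward the summit in flagged peaks, both the lower ones and the others. A match within 25 bp of the centre was found in 21.9% of flagged lower peaks and in 12.6% of other flagged peaks. Between 125 and 150 bp these shares fell to 9.03% and 5.67%.

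**Figure D5:**
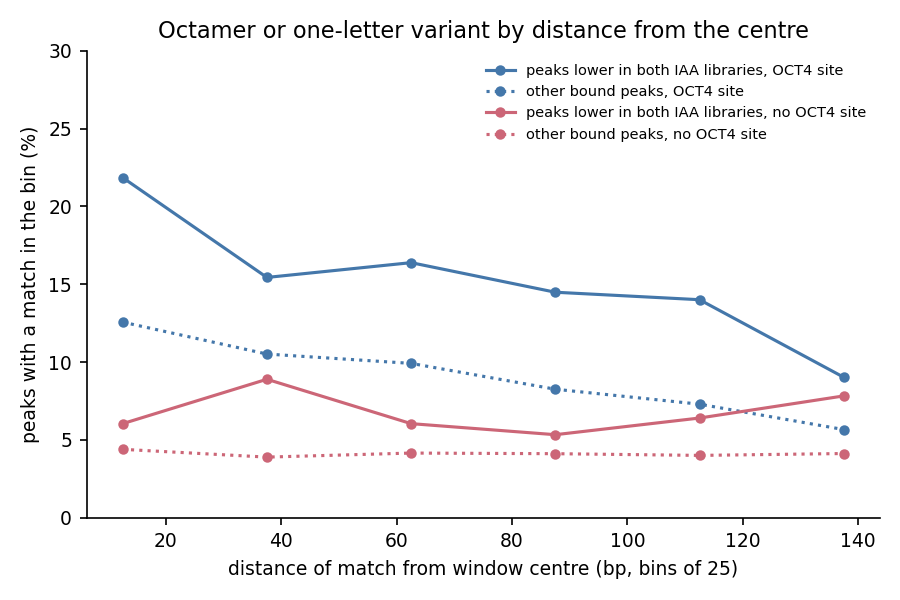
Share of peaks (%) with an octamer or one-letter variant in each 25-bp bin of distance from the window centre, for lower peaks (solid) and other bound peaks (dotted) with (blue) and without (red) an OCT4 site. The solid blue line starts highest, at 21.9%, and falls with distance. The dotted blue line falls as well, from 12.6% to 5.67%, while the dotted red line stays near 4%.

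Letters of other factors of the network did not show this excess. The SOX core CATTGT, which overlaps the composite, was in 33.9% of lower and 37.0% of bound windows, and the homeodomain core TAATGG described for NANOG in 18.5% against 20.9%. The KLF motif GGGNGTGG was in 13.4% against 15.9%, the STAT motif TTCCNGGAA in 1.71% against 1.63%, and the TEAD motif CATTCCA in 9.83% against 8.14%. The sequence CAAGGTCA, bound by the orphan nuclear receptor ESRRB of the naive network, was less common, in 5.13% of lower and 9.72% of bound windows, as was its shorter form AGGTCA, in 23.9% against 34.1%. The shortfall was again on both sides of the flag, with CAAGGTCA in 6.41% of lower and 11.5% of other OCT4-flagged windows, and in 3.20% and 9.48% of those without an OCT4 site. GC content was lower too, with a median of 43.3% against 46.2%, and the part this plays in the motif shares was not tested.

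The lower peaks were placed in the genome much as other NANOG peaks were. By the GENCODE annotation 335 (47.7%) were centred in introns and 326 (46.4%) between genes, against 51.4% and 42.8% of bound peaks. Exons held few of them. A transcript start lay within 1 kb of 62 lower peaks (8.83%, against 9.93%), and the median distance to the nearest start was 10670 bp against 9392 bp. Their share of bound peaks ranged from 2.83% to 5.58% between chromosomes, the Y excepted.

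Most neighbours of lower peaks were not lower themselves. Another bound peak lay within 10 kb of 207 lower peaks (29.5%, against 30.1% of bound peaks). The nearest such neighbour was itself lower in 33 of 207 cases (15.9%) and higher in 86 (41.5%), whereas over all bound peaks with a neighbour it was lower in 4.09% and higher in 62.0%. The median change of the neighbour was 0.41 on the log2(RPKM + 0.1) scale, against 0.74 over all bound peaks. The median neighbour of a lower peak thus went up, by less than the median neighbour in general. In uninduced cells the lower peak was usually the stronger of the pair, with the neighbour stronger in 29.5% of cases against 50.1% in general, a level that the choice of the peaks also affects.

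Runs of lower peaks were short. With successive peaks at most 25 kb apart, 646 of the 702 stood alone, 46 formed 23 pairs, 6 formed 2 runs of 3, and 4 formed 1 run. The windows do not overlap, the smallest distance between centres of bound windows being 353 bp. The run on chromosome 16 held 3 unflagged windows from chr16:3231620-3231970 to chr16:3233399-3233749, of which the first had 3.11 and 5.61 RPKM before and 3.05 and 1.58 RPKM after. The second had 4.50 and 2.68 RPKM before and 2.47 and 1.05 RPKM after, and the last 2.77 and 3.17 RPKM before and 2.18 and 2.11 RPKM after. The other runs of 3 and 4 were on the Y chromosome.

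The 281 lower peaks without an OCT4 flag differed from the flagged ones in their sequence. Windows that were matched at 95% identity over 90% of their length elsewhere in the reference made up 51 of the 281 (18.1%) but 4.28% of OCT4-flagged lower peaks, against 5.56% and 4.30% of other bound peaks without and with the flag. These copies were concentrated in weak windows. In the weakest bin of mean signal 37.9% of unflagged lower peaks had a copy, and in the stronger bins 5.56%, 1.54% and 7.14%. The shares of all unflagged bound peaks with a copy were not computed by bin, so these values have no background beside them. Windows in which at least 50% of bases were annotated as repeats made up 32.4% of unflagged and 15.2% of flagged lower peaks, against 15.5% and 21.4% of the others. In such windows the placement of a read may be ambiguous, and what part this has in the lower values was not tested. Among all lower peaks 84 counted as bound through their uninduced value alone. The lower quartile of the mean IAA signal of the 281 was 0.890 RPKM. Their copy and repeat shares may thus rest in part on windows admitted by the condition in which they were high. The shares without such windows were not tested. Leaving out every window with a near-identical copy left 633 lower peaks, of which 63.7% had an OCT4 site.

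On the Y chromosome 8 of 21 bound peaks were lower (38.1%), and 13 of the 21 windows, 6 of the 8 lower ones, had near-identical copies. The strongest of them, in an intron of Gm47283 (chrY:90804970-90805320), had 8.65 and 10.7 RPKM in uninduced replicates 1 and 2 and 6.38 and 6.85 RPKM in IAA replicates 1 and 2. Another in the same gene (chrY:90812237-90812587) had 8.30 and 6.34 RPKM before and 5.51 and 4.74 RPKM after. All other lower peaks on this chromosome stayed under 4 RPKM in every library.

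A telomere-type repeat marked a small, weak set of unflagged peaks. CCCTAACCC, searched after the values were seen, was present in 15 lower windows (2.14%, against 0.650% of bound windows), and 13 of these had no OCT4 flag. Their median mean signal in uninduced cells was 1.40 RPKM, and 9 of them held 1 read, the lowest value there is, in IAA replicate 2. Since 1 read is the floor, no ratio is given for these. The same 9 had a mean IAA signal of 0.336 to 0.771 RPKM, below 0.9 RPKM. They counted as bound through their uninduced value alone. The excess of the repeat thus rests in part on windows admitted by the condition in which they were high. The share without such windows was not tested.

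For single peaks limma was fitted over all bound peaks on log2(RPKM + 0.1). At an adjusted p under 0.05 it called 56 lower peaks (0.337% of bound peaks) and 2493 higher ones (15.0%). All 56 were among the 702, as the same contrast chose them, and 45 of the 56 had an OCT4 flag. Leaving out either IAA library brought these calls to 0, with 108 and 32 peaks lower at an unadjusted p under 0.05 without replicate 1 and without replicate 2. With 1 IAA library left, that library is assumed to vary as the uninduced ones do.

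How often a left-out library kept the order was counted as well, with no test, since 3 of the 4 values are shared with the choice. The peaks kept are the same 702 each time. The left-out library is set against the same values of the other condition that made the choice. A share above that of all bound peaks is thus in part built in, and these shares cannot tell how well the fall repeats. Of 1859 peaks that were lower in IAA replicate 2 than in both uninduced libraries 37.8% were also lower in IAA replicate 1, and of 1324 that were lower in IAA replicate 1 53.0% were also lower in IAA replicate 2. Over all bound peaks 7.97% and 11.2% lay on that side. Of 2327 peaks chosen without uninduced replicate 1 30.2% kept the order in it, and of 1135 chosen without uninduced replicate 2 61.9% did, beside 6.83% and 14.0% of all bound peaks. With an OCT4 site the shares in IAA replicates 1 and 2 were 53.5% and 60.8%, beside 693 (17.6%) and 787 of all 3930 OCT4-flagged bound peaks. Without one they were 26.2% and 44.5%, beside 4.98% and 8.46%. The flagged peaks thus had the higher shares but also the higher background.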

How the data were processed

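Per the labels and the methods of the study, reads were aligned to GRCm38/mm10 with Bowtie2 2.3.4.3 at default settings, duplicates were removed, and NANOG peaks were called with MACS2 on pooled reads of both conditions. The authors deposited RPKM values over 351-bp windows centred on peak summits, per library and per condition, with 4 flags per window; scaling was to library size, and no spike-in is given in the sources used here. Windows under 0.9 RPKM in both conditions were not counted as bound. In each library 100.0% of values were whole multiples of the smallest (rounded to the nearest whole number), which was taken as 1 read. Changes are IAA minus uninduced means of log2(RPKM + 0.1), on which changes of weak peaks appear smaller than they are.

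The members, gene lists and tests were chosen with earlier results of these data known. Named peaks were the 10 with the widest gap between conditions and at least 10 reads in both uninduced libraries, the 10 strongest in uninduced cells, those within 100 kb of listed genes, the runs of 3 or more, and examples on either side of the boundary. Windows were annotated with the mouse GENCODE release M21 and the RefSeq sequence of GRCm38. Near-identical copies were found with minimap2 2.31 (at least 95% identity over 90% of the window). Shares of bound windows serve as background; no test over peaks was made. Single peaks were fitted with limma 3.58.1 (eBayes with a trend, Benjamini-Hochberg over bound peaks) in R 4.3.3, after the scripts had been tested on simulated data. Python 3.11.15 was used with pandas 2.3.3.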

Additional observations from a re-analysis of the deposited data

How the results depend on the processing

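The number of lower peaks depended on how libraries were scaled, with 3479 when library medians were set equal and 3563 after quantile normalization. It also moved with the rule and the samples: a gap of at least 1.5 times gave 132, condition values alone 2378, limma calls 56, and leaving out 1 library 1135 to 2327. The share with an OCT4 site stayed above the share of the eligible peaks in all 14 alternatives: it was 55.0% over all windows, 67.4% at 2 RPKM, 66.3% with at least 2 reads in every library, 47.5% with equal medians, 45.9% after quantile normalization, 54.5% with a gap of 1.5 times, 49.6% by condition values, 80.4% of limma calls, 63.7% without near-identical copies and 42.3% to 52.3% without 1 library. The octamer share was 6.44% with equal medians, 6.29% after quantile normalization, 13.6% with a gap of 1.5 times, 7.78% by condition values, 7.12% in the central part of the window, 54.1% with 1 letter free, 32.5% for the 6-letter core and 6.67% to 8.91% without 1 library. Without near-identical copies the repressed share went from 8.55% to 4.90%, and that of the eligible peaks from 5.58% to 3.34%. The repressed share was 4.56% at 2 RPKM, against 3.65% of the eligible peaks. With at least 2 reads in every library it was 5.56% against 4.35%, and among limma calls 0 against 5.58%. Lower calls by limma numbered 130 with equal medians, 1 after quantile normalization, 0 without a variance trend (131 at an unadjusted p under 0.05) and 55 by voom on the recovered reads. Leaving out a library gave 0 to 140 calls: 0 when either IAA library was dropped, and 60 or 140 when uninduced replicate 2 or 1 was. The replicate block gave 52. Deviations of same-numbered samples correlated at 0.0055 across peaks, a value that cannot decide whether same-numbered samples share a culture. Setting the medians equal gave 22 higher calls against the 2493 of the deposited scale, and 0 after quantile normalization. The exclusion of near-identical copies and both looser octamer searches were chosen after seeing the data. The causes of these differences were not tested, apart from the fewer samples or peaks that an alternative uses. Depth limits the weak peaks most, through IAA replicate 2.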
